A study of Homo sapiens with 8 samples.

Results

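The wide H3K36me2 regions of control neural progenitor cells that were missing from both KDM2A hairpin libraries are described here. They are the regions of the control list with a width of 8000 bp or more, on chromosomes 1 to 22, that shared 0 bp with any region of the sh1 list and any region of the sh4 list. There were 1627 of them among 2595 wide control regions (62.7%) and 19691 control regions of any width. They are called control-alone regions below. They were chosen by the deposited widths and calls of all 3 libraries, so their presence in the control and absence from the hairpins is the rule and not a finding. The same rule was applied to each hairpin in turn. It gave 1131 sh1-alone regions of 2048 wide sh1 regions (55.2%) and 1446 sh4-alone regions of 2570 wide sh4 regions (56.3%).

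The samples are labelled as neural progenitors of H9, a human embryonic stem cell line in wide use. The protocol describes lentiviral infection of the stem cells followed by puromycin selection. The groups are a control (NC) and sh1 and sh4, read here as KDM2A hairpins from the series title. Chromatin immunoprecipitation (ChIP) with an H3K36me2 antibody was done in NC, sh1 and sh4 cells, and with a KDM2A antibody in NC cells. Each of these 4 groups is 1 library with 1 deposited list, so no value has a spread between replicates, no test between groups was possible, and each interval covers counting error only. The level of KDM2A in the hairpin cells was not measured in these files. Peak lists do not measure expression, so the cell type could not be checked against its markers.

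H3K36me2 is dimethylation of a lysine in the tail of histone H3. The NSD methyltransferases and ASH1L write it, often as broad domains over gene bodies and the sequence between genes, and the DNA methyltransferase DNMT3A binds it. KDM2A is a demethylase that removes it, and its zinc finger binds CpG-rich DNA that carries no methylation.

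Few control-alone regions held the start of a protein-coding gene, and the starts they did hold were of both CpG-rich and CpG-poor kinds. Starts could be placed for 13149 genes, where the outer end of the gene in the RefSeq table of GRCh38.p14 was also a RefSeq promoter start. Of these, 22 lay in control-alone regions (0.167%), 19 in sh1-alone regions and 17 in sh4-alone regions. Sequences are shown for 6 genes whose whole 250 bases before the start lay inside a control-alone region. They are the 3 with the most and the 3 with the fewest CG pairs, the pairs that the KDM2A zinc finger reads, and these are in capitals. All run 5′ to 3′ on the strand of the gene and end at the base before its start.
STON2: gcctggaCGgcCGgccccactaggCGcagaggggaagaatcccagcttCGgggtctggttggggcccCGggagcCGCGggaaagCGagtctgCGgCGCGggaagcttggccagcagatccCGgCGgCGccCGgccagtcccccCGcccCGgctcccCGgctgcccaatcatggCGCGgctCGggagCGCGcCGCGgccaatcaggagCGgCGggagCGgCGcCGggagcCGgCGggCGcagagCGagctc
ARG2: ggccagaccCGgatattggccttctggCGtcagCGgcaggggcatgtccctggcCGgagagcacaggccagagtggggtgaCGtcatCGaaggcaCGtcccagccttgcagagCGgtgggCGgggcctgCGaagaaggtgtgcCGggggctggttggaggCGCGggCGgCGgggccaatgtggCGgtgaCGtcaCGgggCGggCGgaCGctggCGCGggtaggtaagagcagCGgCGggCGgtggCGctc
PARP1: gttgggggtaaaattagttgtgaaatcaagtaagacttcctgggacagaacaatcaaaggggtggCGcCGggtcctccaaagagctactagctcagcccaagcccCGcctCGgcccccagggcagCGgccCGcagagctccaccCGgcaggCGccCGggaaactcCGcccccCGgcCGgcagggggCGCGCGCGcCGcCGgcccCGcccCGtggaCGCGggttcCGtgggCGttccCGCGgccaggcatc
MREG: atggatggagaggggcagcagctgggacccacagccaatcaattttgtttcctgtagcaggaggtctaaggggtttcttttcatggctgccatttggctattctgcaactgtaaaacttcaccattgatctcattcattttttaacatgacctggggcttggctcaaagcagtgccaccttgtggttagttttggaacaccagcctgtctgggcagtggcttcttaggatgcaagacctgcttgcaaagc
IFIT1B: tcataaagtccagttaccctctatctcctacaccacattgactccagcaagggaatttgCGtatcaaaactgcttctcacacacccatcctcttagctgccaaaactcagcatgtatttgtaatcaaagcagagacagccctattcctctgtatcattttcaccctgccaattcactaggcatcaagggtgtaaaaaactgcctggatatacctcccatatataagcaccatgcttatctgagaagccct
SLC14A2: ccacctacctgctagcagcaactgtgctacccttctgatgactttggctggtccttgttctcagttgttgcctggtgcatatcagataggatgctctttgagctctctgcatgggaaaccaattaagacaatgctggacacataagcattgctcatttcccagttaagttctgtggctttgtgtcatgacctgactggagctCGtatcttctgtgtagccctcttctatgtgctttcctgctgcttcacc

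STON2, an endocytic adaptor gene (chr14:81436466-81436715, minus strand), had 34 CG pairs in these bases. ARG2, the gene of mitochondrial arginase (chr14:67619670-67619919, plus strand), had 27. PARP1, a DNA damage sensor gene (chr1:226408094-226408343, minus strand), had 26. MREG, which encodes melanoregulin (chr2:216034097-216034346, minus strand), had 0, and IFIT1B (chr10:89377806-89378055, plus strand) and the urea transporter gene SLC14A2 (chr18:45167713-45167962, plus strand) had 1 each. None of the 6 had a deposited KDM2A peak over these bases, and 1 of the 20 genes with the whole stretch inside a control-alone region did. The share of all 13149 starts with such a peak was not computed, so 1 of 20 cannot be read as low or high. The median was 10 CG pairs over the 22 starts in control-alone regions, 5 over the 19 in sh1-alone and 4 over the 17 in sh4-alone regions, against 18 over all 13149. Starts with 10 or more CG pairs made up 50% in the control-alone set (28.2 to 71.8), 42.1% (20.3 to 66.5) and 41.2% (18.4 to 67.1) in the hairpin sets, and 69.3% of all. The intervals of the 3 sets overlapped.

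A few microRNA genes lay in control-alone regions. Of 1793 in the RefSeq gene table on chromosomes 1 to 22, 13 (0.725%) overlapped a control-alone region, 1 (0.0558%) an sh1-alone and 4 (0.223%) an sh4-alone region. The control-alone regions make up 0.633% of the length of the 1 Mb windows used on these chromosomes, so the control share is near that of their length. The sh1-alone and sh4-alone sets are shorter, with 12.0 and 15.6 Mb against 17.6 Mb, and their shares are not scaled for this. A separate RefSeq sequence table places 1461 hairpins there, of which 12, 0 and 2 overlapped the 3 sets. Mature sequences of 4 are shown with the seed, bases 2 to 8, in capitals. These 4 were picked for their host genes with the values already known.
hsa-miR-1301-3p: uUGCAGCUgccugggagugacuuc
hsa-miR-6073: gGUAGUGAguuaucagcuac
hsa-miR-6090: gGGGAGCGaggggcggggc
hsa-miR-146a-5p: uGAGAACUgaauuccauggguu

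The MIR1301 hairpin (chromosome 2, 25328640 to 25328721) lies inside DNMT3A, the MIR6073 hairpin (chromosome 11, 15969533 to 15969621) inside SOX6, and the MIR6090 hairpin (chromosome 11, 128522390 to 128522449) inside the region over ETS1. MIR146A (chromosome 5, 160485352 to 160485450), a regulator of innate immune signalling, lay in a region over no protein-coding gene. Their regions had folds of 1.26, 1.26, 1.28 and 1.34. The 4 seeds printed differ from each other.

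The control-alone regions were wide and shallow. Their median width was 9800 bp, the interquartile range ran from 8600 to 12000 bp and the widest was 26000 bp. The deposited fold is the authors' linear ratio of immunoprecipitate (IP) to background. It had a median of 1.36 in these regions (range 1.17 to 1.98), beside 1.37 in sh1-alone and 1.40 in sh4-alone regions. It was 1.37 in the 968 wide control regions that did overlap a hairpin region. The median control-alone region held 362 IP and 260 input reads, with a 95% counting interval of 1.15 to 1.60 for its fold. Many lay close to the limit of the list. Of the control-alone regions 522 (32.1%, 29.8 to 34.4) had an FDR between 1e-06 and the list's limit of 1e-05, against 25.1% (22.4 to 28.0) of the wide control regions that were shared, 26.5% (24 to 29.2) of sh1-alone and 18.3% (16.3 to 20.3) of sh4-alone regions. A region with an FDR just above that limit in a hairpin library is not listed, so missing means not called.

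**Figure D1:**
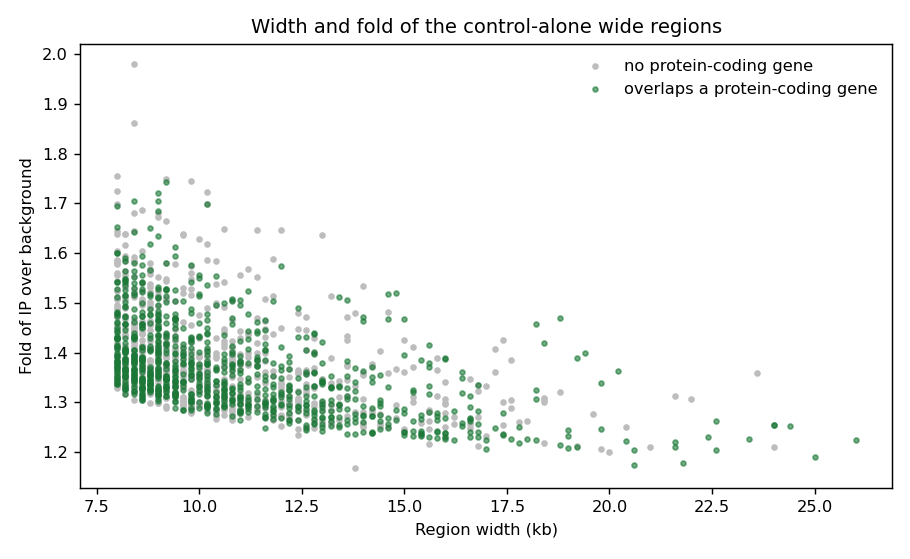
Each point is 1 of the 1627 control-alone regions, with its width in kb on the x axis and the authors' fold on the y axis, coloured by whether it overlaps a protein-coding gene. Fold falls as width grows, from a highest value of 1.98 at 8400 bp to 1.22 at the widest region of 26000 bp. The list's FDR limit of 1e-05 bears on the lower edge, since a narrow region holds fewer reads and needs a higher fold to pass.

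The 10 widest control-alone regions ran from 22600 to 26000 bp and had folds from 1.19 to 1.36. The widest lay in SH3BP5, an adaptor that binds the kinase JNK (chromosome 3, 15305601 to 15331600). It held 971 IP and 780 input reads, 6 KDM2A peaks, and the nearest hairpin regions were 82400 bp away in sh1 and 400400 bp away in sh4. Control regions took up 29.9% of SH3BP5, and regions of either hairpin 0%. The regions in FARS2, RAD51B and AUTS2 had hairpin regions nearer by, within 14200, 40000 and 18400 bp. A region of 24000 bp (chromosome 11, 15948401 to 15972400, fold 1.26) reached the end of SOX6, a transcription factor gene, which as a whole had 3.93% covered in control cells, 5.91% with sh1 and 9.53% with sh4. LY96, a co-receptor of innate immunity (chromosome 8), was covered over 26.4%, 0% and 0%. KLHL29 (chromosome 2, 23497801 to 23520400 in its widest region) held 4 control-alone regions and was covered over 17.3%, 0% and 0%. The other 3 of the 10 lay over AZIN2, ZNF362 and TRIM62 together on chromosome 1 and over no gene on chromosomes 5 and 12.

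The 10 regions of highest fold were narrower, from 8000 to 10200 bp, and 7 of them lay over no protein-coding gene. The highest was on chromosome 9 at 82384201 to 82392600, with a fold of 1.98 (1.64 to 2.40) from 328 IP and 163 input reads. The next, on chromosome 8 at 115870601 to 115879000, had 1.86 (1.51 to 2.30). The 3 over genes lay in the teneurin adhesion gene TENM2 (1.74, 1.47 to 2.07), the efflux pump gene ABCC4 (1.72, 1.44 to 2.06) and TRMT11, a tRNA methyltransferase gene (1.70, 1.43 to 2.04). The nearest hairpin regions were 16200 bp away in sh4, 16600 bp away in sh1 and 9000 bp away in sh1.

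Most control-alone regions had a hairpin region within 100 kb. The nearest region of either hairpin was a median of 22000 bp away, within 10 kb for 511 (31.4%) and within 100 kb for 1386 (85.2%). The same distance to the other 2 libraries was 12600 bp for sh1-alone regions, of which 42.5% had one within 10 kb, and 16200 bp for sh4-alone regions, with 37.5%. Control-alone regions therefore lay farther from regions of the other libraries. The lists also differ in size, with 19691, 19501 and 21493 regions, and the part of this in the distances was not tested. Distances from other positions of the genome were not computed, so these values have no background.

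The limits of the rule fell within a continuous range. Exactly 105 control-alone regions had the limit of 8000 bp, with folds from 1.33 to 1.75 (median 1.43), and 133 regions of 7800 bp would have met the other conditions, with folds from 1.31 to 1.90 (median 1.42). Just inside were regions in KIAA1328 (chromosome 18, fold 1.69) and the galactosyltransferase gene B3GALT1 (chromosome 2, 1.65). Just outside were regions in the calcium channel gene CACNB4 (chromosome 2, 1.90) and the forkhead gene FOXN3 (chromosome 14, 1.74). Of the 968 wide control regions that were shared, 677 overlapped an sh1 region, 471 an sh4 region and 180 both. In 11 of them only 200 bp were shared, 1 step of the list's grid, and in 58 at most 1000 bp. The median shared region had 5000 bp in common.

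Control-alone regions lay over genes more often than those of either hairpin. Of the 1627, 881 overlapped a protein-coding gene (54.1%, 51.7 to 56.6), against 46.9% of sh1-alone (43.9 to 49.8) and 44.0% of sh4-alone regions (41.4 to 46.6). Among wide control regions shared with a hairpin it was 42.5% (39.3 to 45.6). Shared wide regions of sh1 and sh4 were also below their alone sets, with 37.0% (33.8 to 40.2) and 40.4% (37.5 to 43.3). The excess of the control over the hairpins was not seen among the few members of high fold. With only regions at or above the median fold of all control regions, 47 control-alone, 84 sh1-alone and 224 sh4-alone regions were left. The shares over a gene were 36.2% (22.7 to 51.5), 45.2% (34.3 to 56.5) and 39.7% (33.3 to 46.5), with overlapping intervals. Most regions over a gene were wholly within its body, 768 of the 881. The genes were long, with a median of 158 kb against 24.8 kb over all protein-coding genes, and 203 kb and 232 kb in the hairpin sets. A long gene offers more sequence to overlap, so choosing genes by overlap favours long ones in every set.

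In all, 760 of 18969 protein-coding genes (4.01%) were overlapped by a control-alone region, 469 (2.47%) by an sh1-alone and 475 (2.5%) by an sh4-alone region. Among genes of 100 kb or more the shares were 16.1%, 10.9% and 11.2%. The control-alone, sh1-alone and sh4-alone sets span 17.6, 12.0 and 15.6 Mb, and these shares are not scaled for that length. In the median overlapped gene the control-alone regions covered 6.84% of the length. Missing at a position did not mean missing from the gene. Of the 760 genes, 525 (69.1%) held a region of a hairpin library elsewhere in the body and 345 held regions of both. The same held for 83.6% of the sh1-alone and 85.5% of the sh4-alone genes with respect to their other 2 libraries. The genes of these sets differ in length, with medians of 158, 203 and 232 kb. The share among all genes of like length was not computed, so these shares have no background. Inside genes of 100 kb or more with a known direction, the midpoints of control-alone regions had a median of 53.7% of the way from start to end (n = 372), beside 50.1% (n = 263) and 45.3% (n = 329) in the hairpin sets.

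Some genes collected several control-alone regions. There were 115 of 760 with 2 or more, beside 74 of 469 in the sh1-alone and 86 of 475 in the sh4-alone set, where a gene held up to 13. The control set had 14 genes with 4 or more, named here after their values were seen. They include the tumour suppressor gene WWOX (chromosome 16, 78099654 to 79212667), where any H3K36me2 region covered 13.7% in control cells, 4.17% with sh1 and 2.62% with sh4. SLIT3, a secreted axon guidance cue (chromosome 5, 168661740 to 169301139), had 5 such regions and 18.0%, 5.38% and 2.88%. STON2 had the highest coverage of the 14, with 30.3%, 3.41% and 2.05%. PRKCA, a protein kinase C gene, had 15.6%, 4.33% and 1.73%, and RPS6KA2, a kinase downstream of ERK, had 12.2%, 2.07% and 0%. KLHL29 and TRAPPC9, a trafficking complex gene, had 17.3% and 9.0% in control cells, with no region of either hairpin. TENM2 held the most control-alone regions, 6, yet its coverage was 13.3%, 15.8% and 11.1%. Both hairpins had less coverage than the control at 13 of the 14, a direction that the choice of genes by control-alone regions favours.

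**Figure D2:**
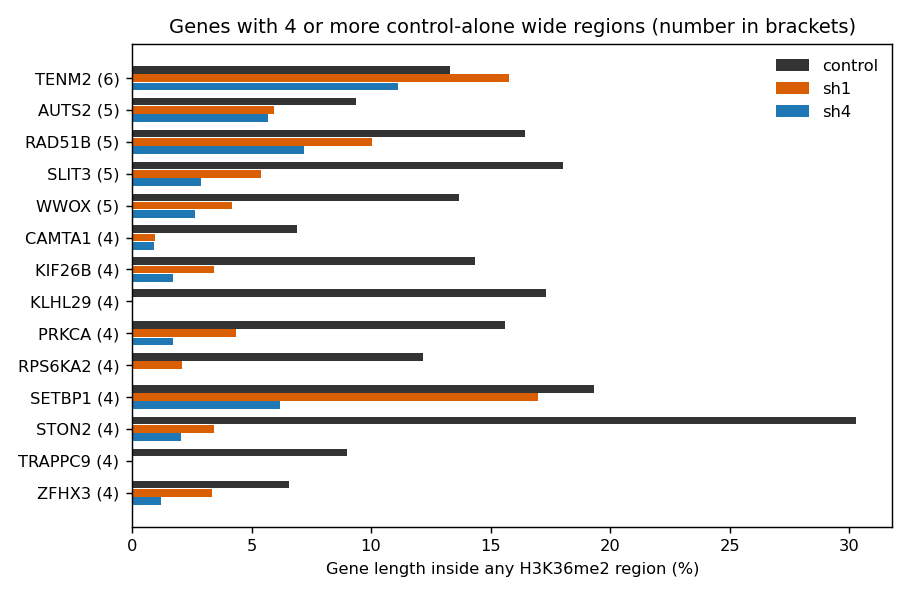
Bars give the percent of each gene's length inside any H3K36me2 region of the control, sh1 and sh4 lists, for the 14 genes with 4 or more control-alone regions, 1 library each. TENM2 and SETBP1 had sh1 coverage close to the control (15.8% and 17.0%), and KLHL29 and TRAPPC9 were at 0% in both hairpins.

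At the other extreme were short genes that 1 region nearly filled. Control-alone regions covered at least 50% of 21 genes, named here after their values were seen, and 20 of these were at 0% in both hairpins. CALML3, a calmodulin-like gene (chromosome 10, 5524961 to 5526771), was the only protein-coding gene wholly inside a control-alone region, beside 4 inside sh1-alone and 3 inside sh4-alone regions. At least 50% was covered in 7 genes of the sh1-alone and 16 of the sh4-alone set. SLN, the sarcolipin gene that inhibits the calcium pump of muscle, was covered over 98.8%, the sphingolipid transporter gene MFSD2B over 69.3%, and GM2A, the activator of ganglioside breakdown, over 73.0%. TMEM119, a microglia marker, was covered over 65.0%, TRAF1, a signalling adaptor of the TNF receptors, over 60.5%, and SDC1, the syndecan-1 gene, over 52.7%. POPDC2 was the exception, with 59.5% inside control-alone regions and 10.3% covered by sh1 regions. Since a control-alone region shares no base with a hairpin region, a short gene inside one is at or near 0% in the hairpins by construction.

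Gene lists were read against the share of all protein-coding genes overlapped, 4.01% in the control-alone, 2.47% in the sh1-alone and 2.5% in the sh4-alone set, and of genes of 100 kb or more, 16.1%, 10.9% and 11.2%. The median gene of every list, like the median of all genes, was covered over 0% by control-alone regions. MAPK signalling is named in the series title, and 3 of its 71 listed genes (4.23%) were overlapped, a share near the background. The sh1-alone set overlapped 7 (9.86%), above its share of all genes, and the sh4-alone set 2 (2.82%). Of the 71 genes 22 were of 100 kb or more. SPRY4, a feedback inhibitor of receptor tyrosine kinases, had a region at chromosome 5, 142307601 to 142321600, with a fold of 1.26 (1.11 to 1.44) from 525 IP and 410 input reads. The nearest sh1 and sh4 regions were 129600 and 181800 bp away. RPS6KA2 had several, among them one at chromosome 6, 166720801 to 166730200, with a fold of 1.46 (1.24 to 1.71). EGFR had one at chromosome 7, 55046601 to 55056200, with a fold of 1.38 (1.18 to 1.62), and also an sh1-alone region at another place in the same gene. Other genes of the list in the sh1-alone set included MAPK10, MAP2K6, RPS6KA5 and MAPKAPK2.

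Axon guidance and synapse genes were overlapped in 10 of 30 (33.3%), beside 3 in the sh1-alone and 5 in the sh4-alone set. This list is long, with a median gene of 416 kb, and 29 of its 30 genes were of 100 kb or more, where the background is 16.1%, 10.9% and 11.2%. GRIN2B, an NMDA receptor subunit gene, had a region at chromosome 12, 13960401 to 13978600, with a fold of 1.46 (1.29 to 1.65). All regions together covered 11.8% of GRIN2B in control cells, 13.8% with sh1 and 6.98% with sh4. SYT1, the synaptic calcium sensor gene, had one at chromosome 12, 79430601 to 79445000, with a fold of 1.35 (1.18 to 1.55), and total coverage of 4.15%, 1.39% and 5.68%. SLIT3 had regions at chromosome 5, 169000801 to 169016200 (fold 1.23, 1.09 to 1.40), and 168893201 to 168907400 (1.27, 1.11 to 1.45), the second only 800 bp from an sh4 region. For GRIN2B in sh1 and SYT1 in sh4 the hairpin thus had more of the gene covered, at other positions.

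Growth factor and receptor genes were overlapped in 4 of 28 (14.3%), with 3 in sh1-alone and 1 in sh4-alone regions. The list has 13 genes of 100 kb or more, so its share lies between those of all genes and of long genes. NTF3, the neurotrophin-3 gene, had 14.6% of its length covered in control cells and 0% with either hairpin. This came from a region at chromosome 12, 5485801 to 5503200, with a fold of 1.23 (1.09 to 1.39). NTRK2, a neurotrophin receptor gene, was covered over 11.8%, 13.4% and 4.52%, and ERBB4 over 6.71%, 3.87% and 6.17%. Wnt, Notch and Hedgehog genes were overlapped in 3 of 34 (8.82%), with 2 and 0 in the hairpin sets, and 13 of the 34 were of 100 kb or more. LEF1, a transcription factor of the Wnt pathway, had neighbouring regions at chromosome 4, 108042201 to 108055200 and 108056001 to 108066600, with folds of 1.34 and 1.30. Total coverage of LEF1 was 15%, 22.4% and 7.74%. TCF7L1 had 10.1%, 10.6% and 0%, and APC, a scaffold of the β-catenin destruction complex, had 12.0%, 6.78% and 0%.

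Neural progenitor markers were overlapped in 2 of 23 (8.70%) and in 0 in both hairpin sets. Of the 23 genes 5 were of 100 kb or more, where the background is 16.1%, 10.9% and 11.2%. The overlapped genes, MSI2 (445731 bp) and PLAGL1 (124300 bp), are both of that length. The control share lies between those of all and of long genes, and its difference from the hairpin sets was not tested. MSI2, an RNA-binding gene of stem and progenitor cells, held 3 control-alone regions, with folds of 1.27 (1.13 to 1.42), 1.49 (1.29 to 1.72) and 1.35 (1.17 to 1.56). No hairpin region lay in MSI2, and the nearest to these 3 were 69600, 182800 and 138800 bp away, all in sh1. PLAGL1, an imprinted zinc finger gene, had a region with a fold of 1.5 (1.29 to 1.76) and coverage of 12.1%, 3.54% and 3.86%. Among neurogenesis and neuron differentiation genes only TAGLN3 was overlapped, 1 of 37 (2.70%), at chromosome 3, 111996801 to 112010400, with a fold of 1.33 (1.16 to 1.52).

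H3K36 methylation enzymes and readers were overlapped in 2 of 21 (9.52%), with 2 in sh1-alone and 0 in sh4-alone regions. Of the 21 genes 11 were of 100 kb or more, and the share again lies between those of all and of long genes. In DNMT3A the region ran over chromosome 2, 25323201 to 25340000, with a fold of 1.26 (1.12 to 1.42), 8 KDM2A peaks and the MIR1301 hairpin shown above. The nearest sh1 and sh4 regions were 113200 and 146400 bp away. KDM4C, a demethylase of H3K9 and H3K36, had a region with a fold of 1.58 (1.32 to 1.90) and 0 KDM2A peaks. Its coverage was 5.45%, 5.41% and 3.83%. The sh1-alone set held the methyltransferase genes ASH1L and SETD3. Control-alone regions overlapped 0 of 17 pluripotency genes, 0 of 39 HOX genes, 0 of 24 genes of blood, liver and muscle and 0 of 30 cell cycle genes. In the hairpin sets PTPRC (sh4) and CDK6 (sh1) were the only genes of these 4 lists.

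**Figure D3:**
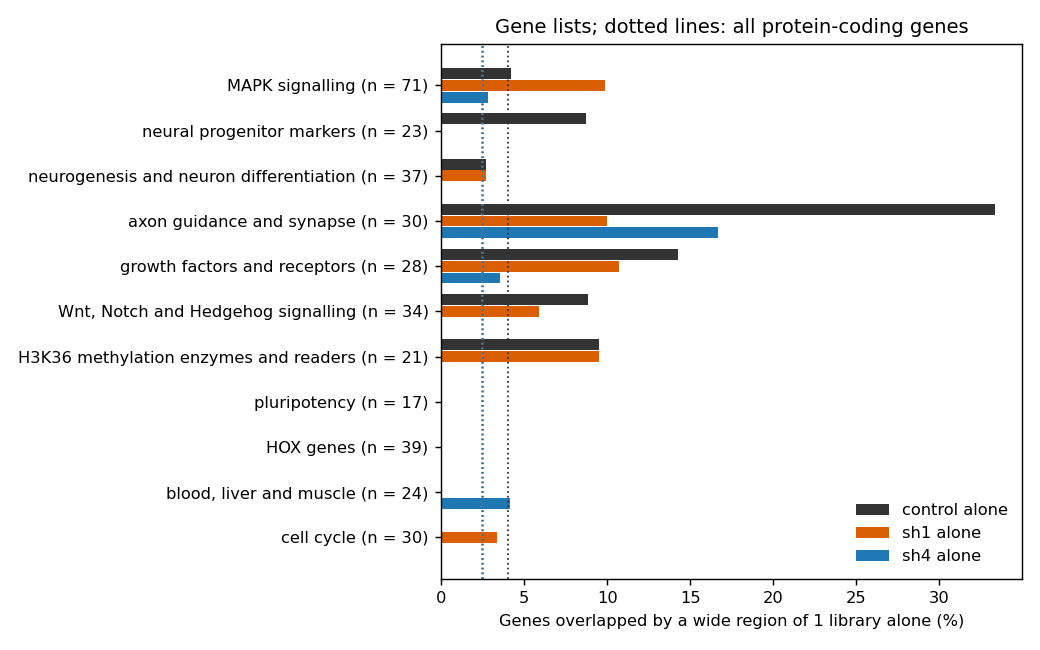
Bars give the percent of each list's genes on chromosomes 1 to 22 that a control-alone, sh1-alone or sh4-alone wide region overlaps, and dotted lines the same for all protein-coding genes (4.01%, 2.47% and 2.5%). Axon guidance and synapse genes, nearly all of them long, stand highest in the control at 33.3%, and 4 lists have no control bar.

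Control-alone regions were spread over all 22 autosomes and were densest on chromosome 6. It held 161, or 94.2 per 100 Mb (80.2 to 109.9), beside 62.6 in sh1-alone and 59.1 in sh4-alone regions. Chromosome 6 was also the densest for sh1-alone regions. It held 243 wide control regions of any kind, of which 66.3% were control-alone, near the 62.7% of all wide control regions. The widest control-alone regions on chromosome 6 included those in FARS2, over the retrogene FAM50B (chromosome 6, 3835001 to 3854800, fold 1.25) and in RREB1, a zinc finger transcription factor gene (fold 1.21). Chromosome 2 had 91.8 per 100 Mb (80.1 to 104.6), against 56.8 (47.7 to 67.1) and 41.2 (33.5 to 50.1). Gene-dense chromosome 19 held 1 in the control and 0 in either hairpin. On chromosomes 16 and 17 the control had 32 and 31, sh1 9 and 9, and sh4 11 and 10. The counting intervals of the control and each hairpin did not overlap on either chromosome. Wide regions of any kind also differed this way there. In the order control, sh1, sh4, chromosome 16 held 38, 14 and 14 of them, and chromosome 17 held 34, 11 and 12. Regions of 1 library alone made up 84.2%, 64.3% and 78.6% of these on chromosome 16. On chromosome 17 they made up 91.2%, 81.8% and 83.3%. In counts of regions of 1 library alone, chromosome 13 went the other way for sh1, with 43, 59 and 35. Chromosome 20 was nearly even, with 16, 17 and 18.

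Chromosome 1 set sh4 apart, since 438 of the 1446 sh4-alone regions lay beyond 140 Mb, against 65 in the control and 37 in sh1. Without that part there were 1562, 1094 and 1008 regions. The shares over a gene were then 54.2%, 46.3% and 42.5%.

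**Figure D4:**
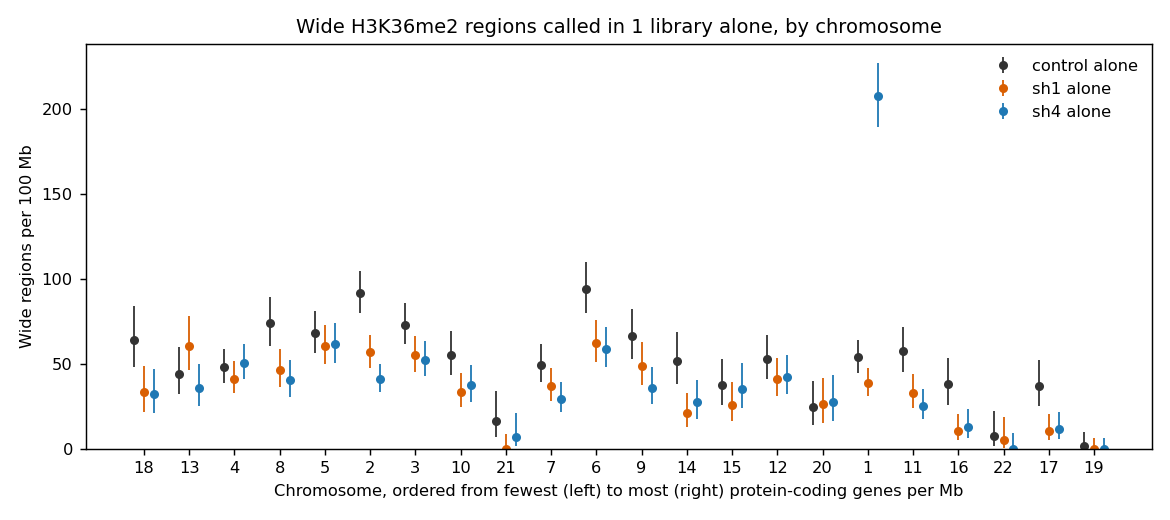
Points give wide regions of 1 library alone per 100 Mb on each autosome, with exact 95% counting intervals, in order of protein-coding genes per Mb. The control stands at 94.2 on chromosome 6, and sh4 at 208 on chromosome 1.

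By gene density, 17.2% of control-alone regions (15.4 to 19.1) lay in 1 Mb windows with 10 or more protein-coding genes, against 12.1% of sh1-alone (10.3 to 14.2) and 9.34% of sh4-alone regions (7.89 to 11.0). Such windows made up 22.4% of those used. An earlier look at these data had shown a difference by gene density, so these shares are not independent of it. The value was 6.30% (4.85 to 8.02) for wide control regions shared with a hairpin. Without chromosome 1 beyond 140 Mb it was 16.3%, 11.4% and 8.13% in the 3 sets. At the other end, 4.24%, 4.95% and 12.2% lay in windows with no protein-coding gene, which made up 13.5% of the windows used. Control-alone regions occurred in 1000 windows of 1 Mb, as the only one in 617 and with 3 or more in 164. The fullest windows held 6 each. One lies on chromosome 1 at 234000001 to 235000000, where none of the 6 touched a protein-coding gene and the hairpin sets had 0. Others were at RAD51B on chromosome 14, at TENM2 and SLIT3 on chromosome 5, and at MATN2 and MTDH on chromosome 8.

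KDM2A peaks of the control cells were somewhat denser in control-alone regions than in those of either hairpin. The 1627 regions held 3766 peak midpoints, 214 per Mb (208 to 221), against 201 per Mb (193 to 209) in sh1-alone and 165 (158 to 171) in sh4-alone regions. The ratio of control to sh1 was 1.07 (1.01 to 1.12) and of control to sh4 1.30 (1.24 to 1.37). Without chromosome 1 beyond 140 Mb these ratios were 1.08 (1.02 to 1.14) and 1.22 (1.16 to 1.30). Over chromosomes 1 to 22 there were 171 peaks per Mb, and in wide control regions shared with a hairpin 190 (182 to 198). Shared wide regions held 191 (182 to 200) in sh1, below its alone set, and 174 (167 to 181) in sh4, above its alone set. Among regions at or above the control's median fold there were 162 (126 to 205), 172 (144 to 204) and 133 (118 to 150) per Mb. The control value was then below that of sh1, with overlapping intervals.

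The step from the surroundings into the region was of like size in all 3 sets. Within 10 kb outside the regions there were 181 KDM2A peaks per Mb for control-alone, 162 for sh1-alone and 143 for sh4-alone regions. The ratio of inside to flank was 1.19 for control-alone (1.14 to 1.23), 1.24 for sh1-alone (1.17 to 1.30) and 1.15 for sh4-alone regions (1.09 to 1.21). The flanks thus differed between the sets in the same order as the insides. The sets differed in gene density in the same order, as given above, and its part in the KDM2A densities was not tested. KDM2A was mapped in control cells only.

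**Figure D5:**
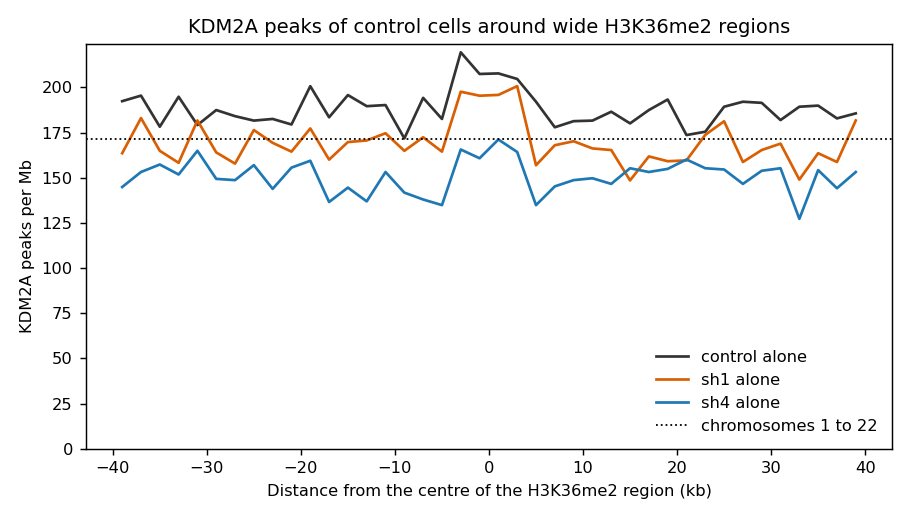
Lines give KDM2A peak midpoints per Mb in 2 kb steps from the centre of control-alone, sh1-alone and sh4-alone regions, with the level of chromosomes 1 to 22 (171) dotted. All 3 lines step up near the centre, and in most steps outside the control-alone line is highest and the sh4-alone line lowest.

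Strong KDM2A peaks were not gathered in control-alone regions. The KDM2A list is broad, with an FDR of up to 0.869, and only 82 of the 3766 peaks inside (2.18%) had an FDR under 0.05, against 3.08% of all peaks on these chromosomes. That is 4.67 per Mb (3.71 to 5.79), beside 4.57 (3.44 to 5.95) in sh1-alone, 3.14 (2.32 to 4.15) in sh4-alone regions and 5.27 over chromosomes 1 to 22. The median fold of the peaks was 2.33 inside and 2.33 outside. A control-alone region held a median of 2 KDM2A peaks and at most 11, and 198 (12.2%, 10.6 to 13.9) held 0. In the hairpin sets 14.2% and 20.4% held 0.

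Among KDM2A peaks inside control-alone regions with an FDR under 0.05, that of highest fold lay in TCF12, a bHLH partner of the proneural factors, on chromosome 15 at 57265945 to 57266240, with a fold of 5.80, an FDR of 4.29e-07 and a pileup of 18 fragments. It was the only KDM2A peak in its H3K36me2 region, which had a fold of 1.53 (1.26 to 1.86). Next came peaks in TIAM2, an activator of the GTPase Rac (chromosome 6, 155036513 to 155036775, fold 5.47), and at the end of ELMOD1 (chromosome 11, 107665594 to 107666310, fold 5.40). Another lay in DAB1, an adaptor of reelin signalling (chromosome 1, 57659709 to 57660064, fold 4.78). The last of the 5 was over no gene, on chromosome 15 (55817412 to 55817976, fold 4.53). TIAM2 had 14.7% covered in control cells, 0% with sh1 and 2.52% with sh4. DAB1 was covered over 7.41%, 7.67% and 9.92%, so here too the hairpins had regions elsewhere in the gene.

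The widest sh1-alone region (chromosome 10, 41872801 to 41916200) spanned 43400 bp with 6034 IP reads, 5218 input reads and a fold of 1.14 (1.1 to 1.19). It held 1 KDM2A peak and lay over no gene. Its input reads were many for its width, beside 1126 input reads in the next widest region, of 32000 bp. The next lay in MCC (chromosome 5, 113043401 to 113075400) and FARP1 (chromosome 13, 98393001 to 98424800), each with a fold of 1.17. The 3 widest sh4-alone regions all lay on chromosome 1 beyond 140 Mb, from 33600 to 39600 bp, over no protein-coding gene and with folds of 1.15 to 1.17.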

How the data were processed

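Chromatin immunoprecipitation sequencing lists of 4 groups were used, 1 library each, with no replicate. The submitters' processing notes name Bowtie 1.1.2, MACS2, SICER and the builds hg38 and GRCh38, without their roles. The deposited H3K36me2 lists give each region's fold, a linear ratio of IP to background made by the authors, with a p-value and FDR, none above 1e-05. The deposited score was not used for any value. The deposited KDM2A list gives fold, p-value, FDR (up to 0.869) and pileup signal. Depth per library is not in the lists. IP and input reads per region were recovered from the deposited fold and p-value where the input came out whole within 0.01, for 99.97% to 99.98% of regions, and the recovery was tested on simulated data.

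Regions lie on a 200 bp grid and were written 1-based. Genes, promoters and microRNAs came from RefSeq tables of GRCh38.p14, at gene level, with 18969 protein-coding genes on chromosomes 1 to 22 (153 on alternate sequences left out). No exon annotation was used. Intervals are exact 95% binomial or Poisson intervals, conditional for ratios, and cover counting error only. No test between groups was possible. Python 3.11.15, pandas 2.3.3 and scipy 1.17.1 were used. Named regions are the 10 widest, the 10 of highest fold, up to 4 per gene list, the 5 with the strongest KDM2A peaks, the 5 widest on the densest chromosome, the 5 on either side of the width limit and the 3 widest of each hairpin. The regions and the 11 gene lists were chosen with earlier results of these data known. Alternatives changed the width limit, fold, distance, overlap, window size and chromosome 1. Some items that these rules select are not reported here.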

Additional observations from a re-analysis of the deposited data

Results flagged for a closer look

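Each result here has the hairpins on opposite sides of the control, and the difference was not tested because each group is 1 library. On chromosome 1 there were 125 control-alone, 90 sh1-alone and 482 sh4-alone regions, and of the sh4-alone regions there 438 lay beyond 140 Mb. On chromosome 4 the counts were 92, 79 and 97. On chromosome 13 they were 43, 59 and 35. MAPK signalling genes overlapped were 3, 7 and 2 of 71 (4.23%, 9.86% and 2.82%), where the shares of all protein-coding genes were 4.01%, 2.47% and 2.5%.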

How the results depend on the processing

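No paired analysis was possible because each group has 1 library, and for the same reason no library could be left out. Of 105 alternative values 63 stayed close to the reported ones and 42 moved; in what follows values are in the order control, sh1, sh4. The counts of regions and genes are set by the limits. At 6000 bp there were 3502, 2675 and 3562 regions over 1371, 940 and 965 genes, and at 10000 bp 804, 508 and 645 over 421, 243 and 217. With no other region within 10 kb, 650 sh1 and 904 sh4 regions over 307 and 306 genes were left. At or above the median fold of all control regions, 1.59, there were 47, 84 and 224 regions over 17, 39 and 86 genes. That limit turned the order of control and both hairpins in both counts. It also turned it in the share over genes, which was 36.2% in the control and 39.7% in sh4. The order of control and sh1 turned in KDM2A peaks, with 162, 172 and 133 per Mb. Counting intervals of these shares and densities overlapped between the sets, so their order at that limit is not settled. At 6000 bp sh4 also had more regions than the control, and the shares over genes were 50.9% in the control and 41.3% in sh4. With the 10 kb distance the control had 56.6% over genes, 20.4% in gene-rich windows and 223 KDM2A peaks per Mb. The share in gene-rich windows was 21.9%, 16.0% and 11.3% with windows of 0.5 Mb, 14.9% in the control and 2.68% in sh4 at the fold limit, and 11.2% in sh4 at 10000 bp. In all 7 alternatives run, each on the same libraries, the control was above both hairpins in this share. KDM2A peaks with an FDR under 0.05 numbered 4.67, 4.57 and 3.14 per Mb, and sh4 without chromosome 1 beyond 140 Mb had 176 peaks per Mb. The recovered reads limit single folds to intervals as wide as 1.15 to 1.60 at the median region.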

Other observations

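Among other gene classes, control-alone regions overlapped 423 of 17525 lncRNA genes (2.41%), beside 318 (1.81%) in sh1-alone and 331 (1.89%) in sh4-alone regions. These sets span 17.6, 12.0 and 15.6 Mb, and the shares are not scaled for that length. On the X chromosome, which the rule leaves out, 57 of 91 wide control regions were missing from both hairpins, beside 40 of 57 for sh1 and 40 of 60 for sh4.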
